A study of Homo sapiens with 18 samples.

Results

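The unfolded protein response genes described here are 10 genes of the endoplasmic reticulum (ER), HSPA5, HSP90B1, PDIA4, XBP1, HERPUD1, SDF2L1, ERN1, ATF6, MANF and CRELD2, picked by symbol from the 43735 genes of the count table. All 10 were found and all 10 were among the 14281 genes kept by the filter on low counts. They were measured by RNA sequencing in 2 human multiple myeloma lines, MM1R, which is resistant to glucocorticoids, and MM1S, which is sensitive to them. Cells of each line were left untreated, given 5 µM RSL3 for 3 h, or given 2 µM ferrostatin-1 (Fer-1) for 2 h and then RSL3. RSL3 inactivates GPX4, the enzyme that clears lipid peroxides, and so induces ferroptosis, and Fer-1 traps lipid radicals. Each of the 6 groups had 3 libraries, from passages 4, 6 and 7 of MM1R and passages 16, 22 and 23 of MM1S. Every passage therefore had 1 library of each treatment, whereas line and passage range cannot be told apart. No group received Fer-1 without RSL3. P-values measure the spread between passages of 1 culture of each line.

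The unfolded protein response is set off when unfolded proteins build up in the ER. The sensors are IRE1, encoded by ERN1, ATF6 and PERK, encoded by EIF2AK3. IRE1 splices XBP1 mRNA into the form that encodes an active transcription factor, ATF6 is cut to release another, and PERK slows translation and raises ATF4. Their targets include the chaperones HSPA5 (BiP), HSP90B1 (GRP94), PDIA4 and SDF2L1, the degradation factor HERPUD1 and the small secreted proteins MANF and CRELD2. Plasma cells, from which myeloma arises, need XBP1 to secrete antibody and keep much of this machinery high. Read counts per gene do not separate spliced from unspliced XBP1 mRNA.

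Levels are given as CPM, a gene's counts brought to a fixed library size after TMM scaling. Tests used the quasi-likelihood fit of edgeR, with p-values adjusted over all genes tested by the Benjamini-Hochberg method (FDR). A gene was called changed at an FDR under 0.05, errors of log2 fold changes are standard errors, and errors of levels are SDs of 3 libraries. Library totals were 17635438 to 19368343 counts, and the 10 genes had between 581 counts (CRELD2 in untreated MM1S of passage 23) and 54326 counts (HSP90B1 in RSL3-treated MM1S of passage 16). All 8 plasma cell markers checked were present, from 41.0 CPM of CD38 to 12657 CPM of JCHAIN, while MS4A1 and PAX5, markers of earlier B cells, stayed at or below 0.455 CPM. The T cell, myeloid, epithelial and fibroblast markers were at or below 1.51 CPM, except CD3E (up to 11.5 CPM) and COL1A1 (up to 19.5 CPM). In MM1R, NR3C1, the glucocorticoid receptor gene, was at 13.8 to 22.3 CPM in 8 libraries and at 50.2 CPM in the Fer-1 + RSL3 library of passage 6, against 89.9 to 392 CPM in MM1S. That library stands apart from the others of its line, and whether it holds RNA of MM1S was not tested. Differences of Fer-1 + RSL3 in MM1R, and averages over both lines, rest on it in part. Values without it are given for some of the differences in MM1R and not for the averages. The RSL3 library of MM1S passage 16 also stood apart. HMOX1, the heme oxygenase gene, was at 2298, 310.2 and 434 CPM in the RSL3 libraries of passages 16, 22 and 23. In the RSL3 libraries of MM1R it ranged from 237 to 1404 CPM, so the spread was wide there too. Values without passage 16 are given where they differ most.

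The promoter sequences of the 10 genes are shown first because ATF6 and XBP1 are known to act on their targets through the ER stress element (ERSE), which reads CCAAT, 9 free bases, CCACG, and through ERSE-II, which reads ATTGG, 1 free base, CCACG. RefSeq promoters of 300 bases around the start site (GRCh38.p14) were searched on both strands for exact matches, so variants of a motif were not counted. All 10 genes matched a promoter. An ERSE was found in HSPA5, HSP90B1, XBP1 and CRELD2, with 2 copies in HSP90B1, and in 0.0769% of the 35116 promoters searched. An ERSE-II was found in HERPUD1 and SDF2L1 and in 0.0541% of promoters. The elements are printed in the direction in which the motif reads, with the fixed bases in capitals, so that the copies can be compared.
HSPA5: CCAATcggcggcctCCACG
HSP90B1, far copy: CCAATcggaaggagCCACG
HSP90B1, near copy: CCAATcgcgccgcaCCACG
XBP1: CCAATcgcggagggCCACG
CRELD2: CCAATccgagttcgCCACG
HERPUD1: ATTGGgCCACG
SDF2L1: ATTGGtCCACG
The HSPA5 element lay at chr9:125241391-125241409, between 66 and 48 bases upstream of the start site. The HSP90B1 copies lay at chr12:103930216-103930234 and, on the opposite strand, chr12:103930321-103930339, and began 194 and 89 bases upstream. The XBP1 element was at chr22:28800603-28800621, between 52 and 34 bases upstream. On the strand opposite to the gene lay those of CRELD2, at chr22:49918554-49918572, and of SDF2L1, at chr22:21642114-21642124. The HERPUD1 element, at chr16:56932025-56932035, was 117 to 107 bases upstream.

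ERN1, ATF6, PDIA4 and MANF held neither element in this window. The shared end CCACG, which both elements contain, was found alone or within them in 8 of the 10 promoters and in 38.1% of all promoters. TGACGTGG, the core of another XBP1 and ATF6 site, was in none of the 10 and in 0.729% of all. The ATF4 site TGATGNAAT was likewise in none of the 10 and in 0.991% of all, and its shorter form TGATGNAA, a spelling added after the promoters had been read, was found in HERPUD1 and in 3.62% of all. These are matches of letters and not sites of binding. The 10 genes were picked as members of a response known to act through ERSE and ERSE-II. The shares of all promoters are therefore given as description and not as a test.

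**Figure D1:**
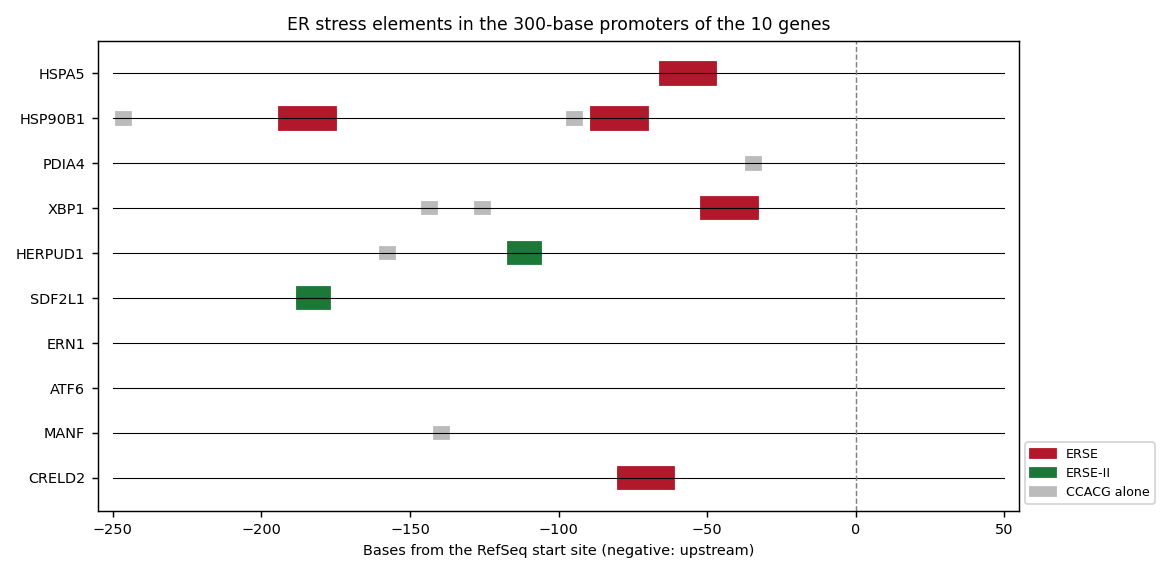
Positions of ER stress elements along the 300-base promoters of the 10 genes, drawn in bases from the RefSeq start site, with ERSE in red, ERSE-II in green and CCACG outside an element in grey. Counting exact matches only, HSPA5, XBP1 and CRELD2 hold 1 ERSE each, HSP90B1 holds 2, and HERPUD1 and SDF2L1 hold 1 ERSE-II each.

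The 2 promoters of the genes with the clearest response to RSL3 are printed in full, 5′ to 3′ along the gene, with the element in capitals, free bases included. HERPUD1 is read from the plus strand at chr16:56931892-56932191 and HSPA5 from the minus strand at chr9:125241294-125241593 (GRCh38.p14).
HERPUD1: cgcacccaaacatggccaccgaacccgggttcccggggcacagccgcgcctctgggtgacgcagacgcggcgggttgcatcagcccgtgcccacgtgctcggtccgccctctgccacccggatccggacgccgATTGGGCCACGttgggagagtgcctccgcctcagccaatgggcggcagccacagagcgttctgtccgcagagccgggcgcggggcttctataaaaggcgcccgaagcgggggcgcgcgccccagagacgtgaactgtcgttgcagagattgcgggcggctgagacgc
HSPA5: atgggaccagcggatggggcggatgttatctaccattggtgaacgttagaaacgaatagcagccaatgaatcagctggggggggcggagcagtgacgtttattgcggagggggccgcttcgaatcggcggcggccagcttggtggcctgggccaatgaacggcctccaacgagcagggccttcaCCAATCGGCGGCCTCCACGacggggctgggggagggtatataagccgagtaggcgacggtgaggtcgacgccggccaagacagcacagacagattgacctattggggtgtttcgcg

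To place the genes in the untreated lines, levels were divided by the length of each gene's canonical transcript, which gives RPKM. In MM1R, XBP1 (836 ± 109 RPKM) and HSP90B1 (831 ± 38.5) were highest and did not differ beyond their spread. PDIA4 (317 ± 13.1), HSPA5 (313 ± 12.4) and HERPUD1 (313 ± 51.4) formed the next step, with overlapping libraries, followed by MANF (223 ± 13.1) and SDF2L1 (69.2 ± 7.15). The sensors ATF6 (35.9 ± 2.18) and ERN1 (33.0 ± 6.70) and the secreted CRELD2 (26.7 ± 1.58) were lowest, and ERN1 overlapped with both neighbours. In MM1S the order began with HSP90B1 (818 ± 77.5) and XBP1 (693 ± 38.2), whose libraries did not overlap. PDIA4 (312 ± 23.3), HSPA5 (275 ± 13.2), HERPUD1 (232 ± 38.2) and MANF (223 ± 18.5) each overlapped with the next in order. SDF2L1 (47.2 ± 10.6), ATF6 (27.7 ± 3.02), ERN1 (27.1 ± 2.99) and CRELD2 (24.1 ± 3.72) came last. These levels rest on 1 transcript a gene, and 7.95% of the annotated exon bases of HSP90B1, 4.62% of those of ERN1 and 3.25% of those of CRELD2 are shared with other genes, several of them on the opposite strand. The use of strand in counting is not given in the sources used here, so those reads cannot be assigned with certainty. HSPA5 and XBP1 have 1 annotated pseudogene each.

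Between the untreated lines, which differ in their response to glucocorticoids, ATF6 (hg19 chr1:161736088-161947364) was the 1 of 10 genes called, against 10.5% of all genes tested. Untreated MM1R libraries had 250.1, 273 and 282 CPM and untreated MM1S libraries 232, 189 and 199 CPM, with no overlap. MM1R was thus higher by 0.38 ± 0.11 on the log2 scale (FDR = 0.0307). A lack of overlap between the untreated lines was seen for 32.4% of all genes tested and, with MM1R higher, for 3 of the 10. The call was lost without replicate 2 or 3 of either untreated group (FDR 0.0976 to 0.140) and when genes with low counts were kept (FDR = 0.123).

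SDF2L1 (hg19 chr22:21996591-21998588), a partner of the HSPA5 chaperone cycle, was at 51.2, 63.0 and 56.9 CPM in MM1R and 47.6, 39.0 and 30.1 CPM in MM1S. Those groups did not overlap either, but the difference of 0.55 ± 0.19 did not pass (FDR = 0.0772). Without the MM1R library that stands apart, it passed at an FDR of 0.0479, and without untreated MM1S replicate 1 at 0.0352. It also passed with DESeq2 (FDR = 0.0414), with genes of low counts kept (FDR = 0.0103) and with only the groups compared (FDR = 0.0498). It did not pass in the other fits that left out 1 library, with other scaling or with a stricter filter. XBP1 differed by 0.27 ± 0.11 (FDR = 0.15) and HERPUD1 by 0.43 ± 0.32 (FDR = 0.438). All 10 log2 differences were above 0, from 0.01 in MANF to 0.55 in SDF2L1. Their median was 0.23, and that of all genes tested was -0.01. No fit with passage as a block can be made here, since the lines share no passage.

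RSL3 was next compared with no treatment. The degradation factor HERPUD1 rose most of the 10, by 1.33 ± 0.32 in MM1R (FDR = 0.0322) and 1.46 ± 0.32 in MM1S (FDR = 0.0211) on the log2 scale, which is 2.51-fold and 2.75-fold. HSPA5 rose 1.48-fold in MM1S (log2 0.57 ± 0.12, FDR = 0.0150). No other member was called within a line. The counts were 1 of 10 in MM1R, against 3.36% of all genes tested, and 2 of 10 in MM1S, against 3.67%. Averaged over both lines, 4 of 10 rose and 0 fell, against 15.5% of all genes in either direction. The 4 were HERPUD1, HSPA5, ERN1 and CRELD2. The median log2 fold change of the 10 genes was 0.16 in MM1R, 0.24 in MM1S and 0.20 in the average. RSL3 and untreated libraries did not overlap for 25.7% of all genes in MM1R and 24.9% in MM1S. Of the 10, RSL3 lay wholly above for 4 in MM1R, and wholly above for 4 and below for 1 in MM1S.

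The sensors and their transcription factor come first. ERN1 (hg19 chr17:62116440-62208179) encodes the kinase and RNase IRE1. Its untreated MM1R libraries had 315, 257 and 209 CPM and its RSL3 libraries 422, 308 and 384 CPM. In MM1S it went from 195, 240.4 and 206 CPM to 360.2, 313 and 276 CPM. The groups of MM1R overlapped and those of MM1S did not overlap. The rise averaged 0.54 ± 0.11 (FDR = 0.00451), with 0.51 ± 0.16 in MM1R (FDR = 0.0870) and 0.56 ± 0.16 in MM1S (FDR = 0.0578). Within each of the 6 passages RSL3 was above untreated, by 0.26 to 0.88. How many of all genes had the same sign in all 6 passages was not counted, here or in the other comparisons.

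ATF6, the sensor that is itself a transcription factor precursor, was at 250.1, 273 and 282 CPM in untreated MM1R and 265, 277 and 296 CPM with RSL3, with overlapping groups (0.06 ± 0.11, FDR = 0.835). In MM1S it was at 168, 162 and 173 CPM with RSL3, below all of the untreated libraries (-0.30 ± 0.11, FDR = 0.126). All 3 passages of MM1R had a log2 ratio just above 0 (0.02 to 0.08), and all 3 of MM1S one below it (-0.46 to -0.20). The difference between the lines was 0.36 ± 0.15 with an unadjusted p = 0.0279 and an FDR = 1.00 in edgeR's interaction test. XBP1 (hg19 chr22:29190543-29196585) ranged from 1277 to 1649 CPM in untreated MM1R and from 1462 to 1590 CPM with RSL3 (0.04 ± 0.11, FDR = 0.902). In MM1S its change was 0.05 ± 0.11 (FDR = 0.873). RSL3 was above untreated in 3 of 6 passages.

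HSPA5 (hg19 chr9:127997132-128003661) encodes BiP, the main ER chaperone, which also holds the sensors inactive. It was at 1225, 1277 and 1180.1 CPM in untreated MM1R and 1544, 1717 and 1678 CPM with RSL3. In MM1S it was at 1054, 1137 and 1041 CPM and 1933, 1506 and 1344 CPM. All RSL3 libraries exceeded all untreated libraries in both lines, and the largest value was that of passage 16. The change was 0.42 ± 0.12 in MM1R (FDR = 0.0547), 0.57 ± 0.12 in MM1S and 0.49 ± 0.08 in the average (FDR = 0.000908). Without passage 16 the average was 0.41 ± 0.07 (FDR = 0.00181). The call in MM1S was lost without untreated replicate 1 or 3 or RSL3 replicate 1 (FDR 0.0584 to 0.0832).

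None of the other chaperones passed the test. HSP90B1 (hg19 chr12:104323885-104347709), the ER form of HSP90, was at 2214, 2426 and 2299 CPM in untreated MM1R and 2596, 2857 and 2789.6 CPM with RSL3. In MM1S it was at 2520.0, 2192 and 2113 CPM and 3570.4, 2324 and 2154 CPM, so that the high value of passage 16 stood alone. The average change was 0.24 ± 0.11 (FDR = 0.139), and RSL3 was above untreated in 6 of 6 passages. Without passage 16 the average was 0.16 ± 0.07 (FDR = 0.15). PDIA4 (hg19 chr7:148700154-148725754), a disulfide isomerase, ranged from 794 to 921 CPM in all untreated libraries and from 769 to 1006 CPM with RSL3. Its average change was 0.05 ± 0.08 (FDR = 0.748). SDF2L1 was at 52.4, 67.3 and 55.1 CPM in MM1R and 49.2, 46.4 and 37.9 CPM in MM1S with RSL3, and overlapped with untreated libraries in both lines (0.11 ± 0.13, FDR = 0.635).

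HERPUD1 (hg19 chr16:56966054-56978776) helps to gather the ligase complex that removes misfolded proteins from the ER. It was at 1048, 869 and 758 CPM in untreated MM1R and 2259, 1640.4 and 2829.6 CPM with RSL3. In MM1S it was at 571, 782 and 630.0 CPM and 3224, 1181 and 1058 CPM. Treated libraries exceeded untreated ones in both lines. The spread was large, with log2 ratios of 1.11, 0.92 and 1.90 at passages 4, 6 and 7 of MM1R and of 2.50, 0.59 and 0.75 at passages 16, 22 and 23 of MM1S. The same passage 16 library had the highest HMOX1, whose part in the result was not tested. Without that passage, the difference in MM1S was 0.67 ± 0.23 (FDR = 0.282), and the average rise was 1.00 ± 0.15 (FDR = 0.000516) in place of 1.40 ± 0.23 (FDR = 0.000829). In MM1R the call was lost in 5 of the 18 fits that each left out 1 library, all of them untreated or RSL3 libraries of MM1R (FDR 0.0720 to 0.120). Those were the 3 untreated libraries and RSL3 replicates 1 and 3. In MM1S the call was lost without any of the 3 untreated libraries (FDR 0.0503 to 0.109) or without RSL3 replicate 1 (0.76, FDR = 0.0852).

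The secreted members were CRELD2 (hg19 chr22:50311815-50321188), a disulfide isomerase-like protein, and MANF (hg19 chr3:51422722-51426828), a binding partner of HSPA5. CRELD2 was at 38.8, 40.0 and 35.6 CPM in untreated MM1R, 55.7, 48.4 and 41.4 CPM in RSL3-treated MM1R, 39.8, 34.1 and 29.2 CPM in untreated MM1S and 56.3, 55.7 and 38.4 CPM in RSL3-treated MM1S. Groups were separate in MM1R and overlapped in MM1S, yet RSL3 was above untreated in 6 of 6 passages (0.22 to 0.71). The average rise of 0.45 ± 0.13 (FDR = 0.0301) was lost in 8 of 18 fits that left out a library (FDR 0.0510 to 0.0838). These were the fits without any of the 3 untreated libraries or RSL3 replicate 1 of MM1R, and without untreated replicate 2 or 3 or RSL3 replicate 1 or 2 of MM1S. MANF changed by 0.08 ± 0.12 in MM1R and 0.24 ± 0.12 in MM1S (FDR = 0.268), where RSL3 libraries (221 to 258 CPM) lay above untreated ones (185 to 219 CPM).

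**Figure D2:**
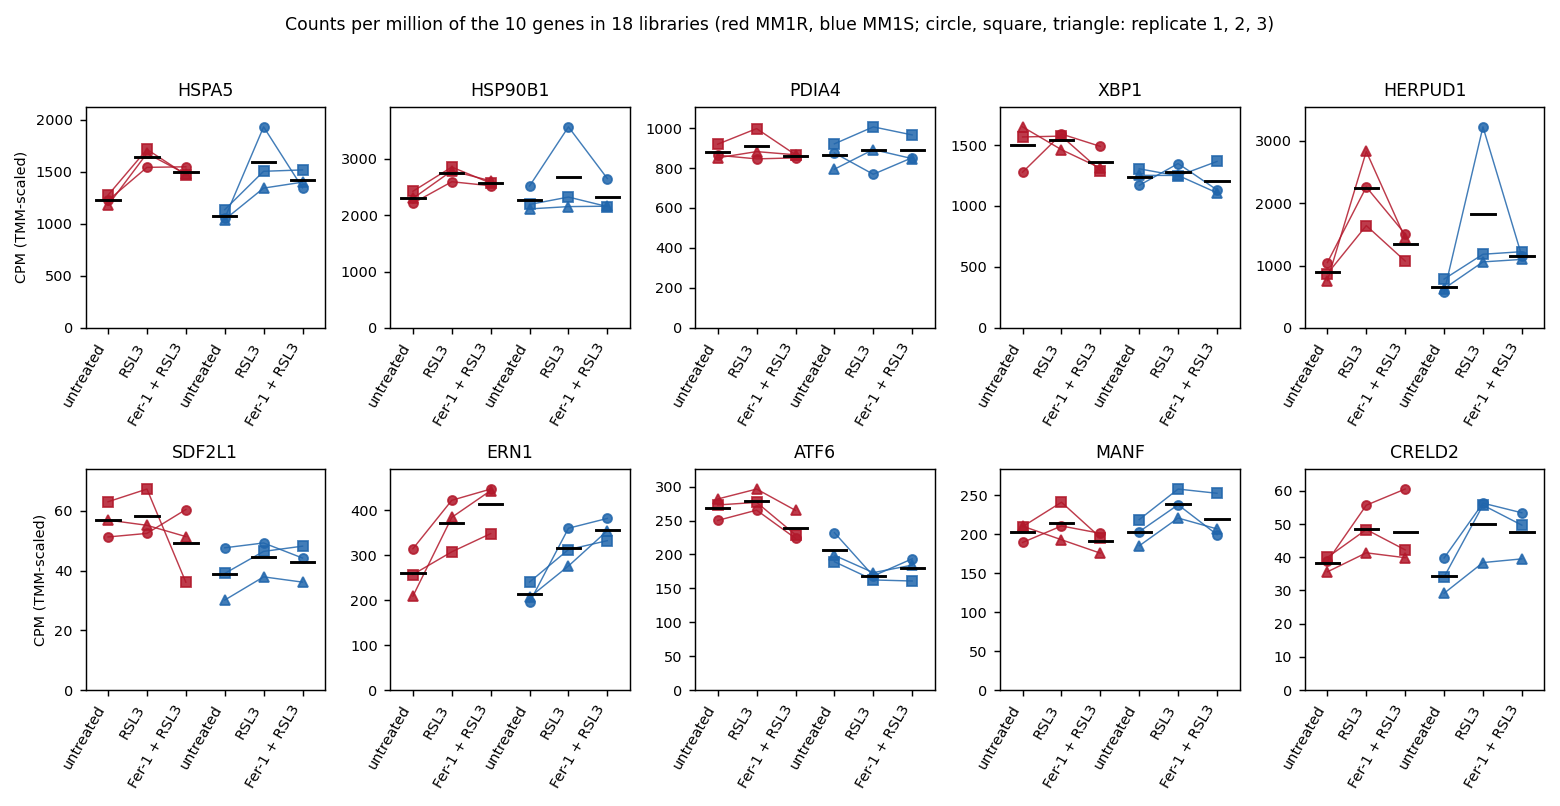
CPM of the 10 genes (vertical axes, from 0) in the 18 libraries by treatment, MM1R in red and MM1S in blue, with lines joining libraries of 1 passage and black bars at the mean of 3 libraries. HERPUD1 of MM1S passage 16 reaches 3224 CPM with RSL3, against 1181 and 1058 CPM in the other passages.

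Since each passage had all treatments, the comparison was repeated with passage as a block. In MM1R 4 members were then called, against 13.1% of all genes. HSPA5 (FDR = 0.0191), ERN1 (FDR = 0.0225) and CRELD2 (FDR = 0.0486) joined HERPUD1. In MM1S 5 were called, against 13.3% of all genes. Here ERN1 (FDR = 0.0172), CRELD2 (FDR = 0.00709) and ATF6, which fell by 0.29 on the log2 scale (FDR = 0.0201), joined HERPUD1 and HSPA5. In the average 5 were called, against 30.4% of all genes, with HSP90B1 as the addition (0.23 ± 0.06, FDR = 0.0149).

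Without passage 16, 3 members were called in MM1R (9.89% of all genes), 0 in MM1S (0.575%) and 4 in the average (10.9%). The 3 of MM1R were HERPUD1, HSPA5 and ERN1. With 2 libraries a group left in MM1S, HSPA5 still had 0.39 ± 0.11 (unadjusted p = 0.00274, FDR = 0.162) in edgeR's test, and 1362 of all genes had an unadjusted p under 0.05.

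**Figure D3:**
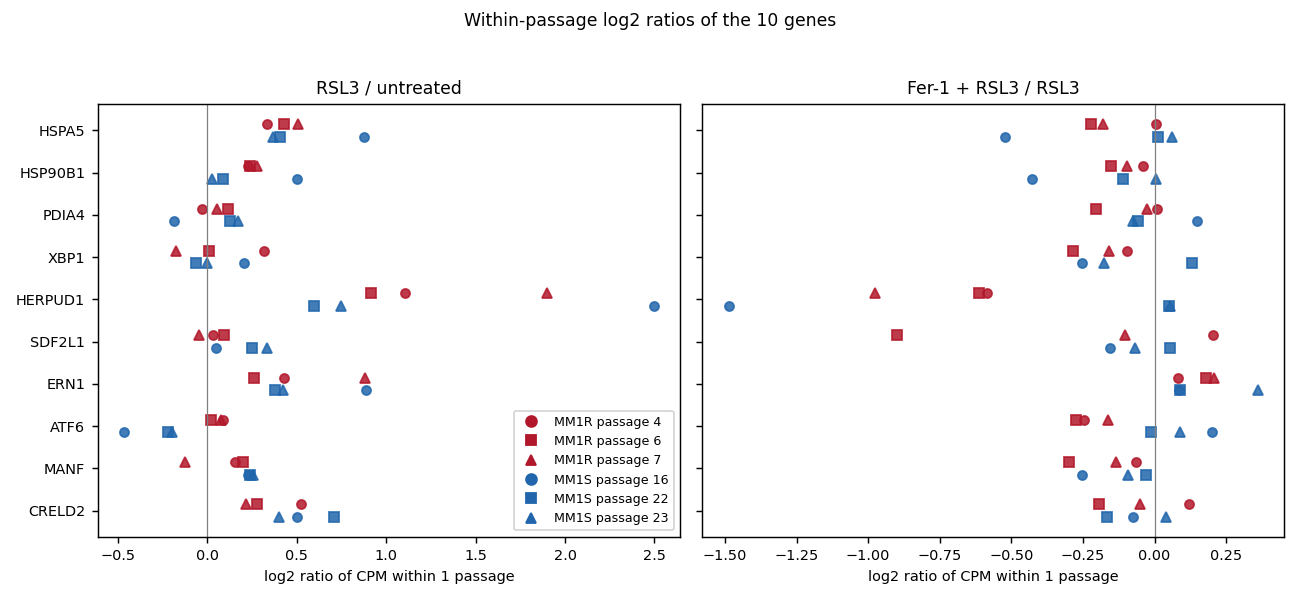
Log2 ratios of CPM within a passage (horizontal axes) for the 10 genes, RSL3 over untreated on the left and Fer-1 + RSL3 over RSL3 on the right, with 1 symbol for each of the 6 passages. On the left, HSPA5, HSP90B1, HERPUD1, ERN1 and CRELD2 lie above 0 in 6 of 6 passages, and ATF6 lies above 0 in MM1R and below 0 in MM1S. The share of all genes with such signs was not counted.

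Whether the lines answered RSL3 differently was asked with the interaction of line and treatment. None of the 10 genes was called, and 0% of all genes tested (smallest FDR = 1.00), although 222 genes had an unadjusted p under 0.05. DESeq2 also called 0 of the 10. HERPUD1 differed between the lines by -0.13 ± 0.45 and HSPA5 by -0.14 ± 0.16. The differences of ERN1 (-0.05 ± 0.23), CRELD2 (-0.20 ± 0.26), HSP90B1 (0.01 ± 0.22), MANF (-0.16 ± 0.16), SDF2L1 (-0.16 ± 0.27), PDIA4 (0.01 ± 0.15) and XBP1 (-0.00 ± 0.16) were all below 1 standard error. Without passage 16 the sign of the difference turned for HERPUD1 (0.67 ± 0.29, unadjusted p = 0.0363), HSPA5 (0.04 ± 0.14), ERN1 (0.12 ± 0.24), PDIA4 (-0.10 ± 0.15) and XBP1 (0.08 ± 0.18), and HSP90B1 had 0.19 ± 0.13. All had FDRs of 1.00 in edgeR's test.

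Cells given Fer-1 before RSL3 were then compared with cells given RSL3 alone. None of the 10 genes was called, in MM1R (0% of all genes tested), MM1S (0%) or the average (0.119%). At an unadjusted p under 0.05, edgeR gave 2 of the 10 in MM1R, 0 in MM1S and 1 in the average, against 6.17%, 5.75% and 12.8% of all genes. DESeq2 called 0 of 10 in each. HERPUD1 had the largest difference of the 10. Its Fer-1 + RSL3 libraries had 1505, 1072 and 1439 CPM in MM1R, all below those with RSL3 alone (-0.74 ± 0.32, unadjusted p = 0.0319, FDR = 0.750). In MM1S they had 1149.9, 1222 and 1098 CPM, within the range of RSL3 alone (-0.65 ± 0.32, FDR = 0.870). Libraries with and without Fer-1 did not overlap for 13.4% of all genes in MM1R and 8.79% in MM1S. Of the 10, 2 lay wholly lower with Fer-1 in MM1R, and 0 lay wholly higher or lower in MM1S.

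By passage, the log2 ratio of HERPUD1 in Fer-1 + RSL3 over RSL3 was -0.59, -0.61 and -0.98 in MM1R. It was -1.49 at passage 16 of MM1S and 0.05 at each of passages 22 and 23, so that the lower mean in MM1S came from passage 16. The averaged difference was -0.70 ± 0.22 (unadjusted p = 0.00643, FDR = 0.210). Without passage 16 it was -0.35 ± 0.15 (FDR = 0.548), with 0.06 ± 0.22 in MM1S, and without the RSL3 library of that passage alone it was -0.35 ± 0.14. Keeping all genes with counts in the fit made it a call, at an FDR of 3.39e-04 in MM1R, 0.00817 in MM1S and 1.04e-07 in the average. Without the MM1R library that stands apart, the difference in MM1R was -0.61 ± 0.36 (unadjusted p = 0.112, FDR = 1).

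ERN1 had the opposite sign. It was at 447, 348 and 444 CPM in MM1R and 382, 333 and 355 CPM in MM1S with Fer-1 + RSL3, above RSL3 alone in 6 of 6 passages by 0.08 to 0.36 (0.16 ± 0.11 in the average, FDR = 0.585). MANF was below RSL3 alone in 6 of 6 passages (-0.15 ± 0.08, FDR = 0.479). ATF6 in MM1R was at 224, 229 and 265 CPM, below all RSL3 libraries (-0.22 ± 0.11, unadjusted p = 0.0481, FDR = 0.805), and without the library that stands apart its difference was -0.19 ± 0.12 (unadjusted p = 0.131). HSPA5 was at 1549, 1473 and 1479.8 CPM in MM1R and 1347, 1519 and 1401 CPM in MM1S (-0.15 ± 0.08, FDR = 0.466). Without passage 16 the averaged difference of HSPA5 was -0.05 ± 0.07, and that in MM1S turned from -0.16 ± 0.12 to 0.04 ± 0.11. SDF2L1 in MM1R was at 60.4, 36.1 and 51.4 CPM, where the low value is that of the library that stands apart, and its difference of -0.24 ± 0.19 (FDR = 0.893) was -0.06 ± 0.19 without it. With passage as a block, 0 of 10 were called in the average, against 2.37% of all genes.

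**Figure D4:**
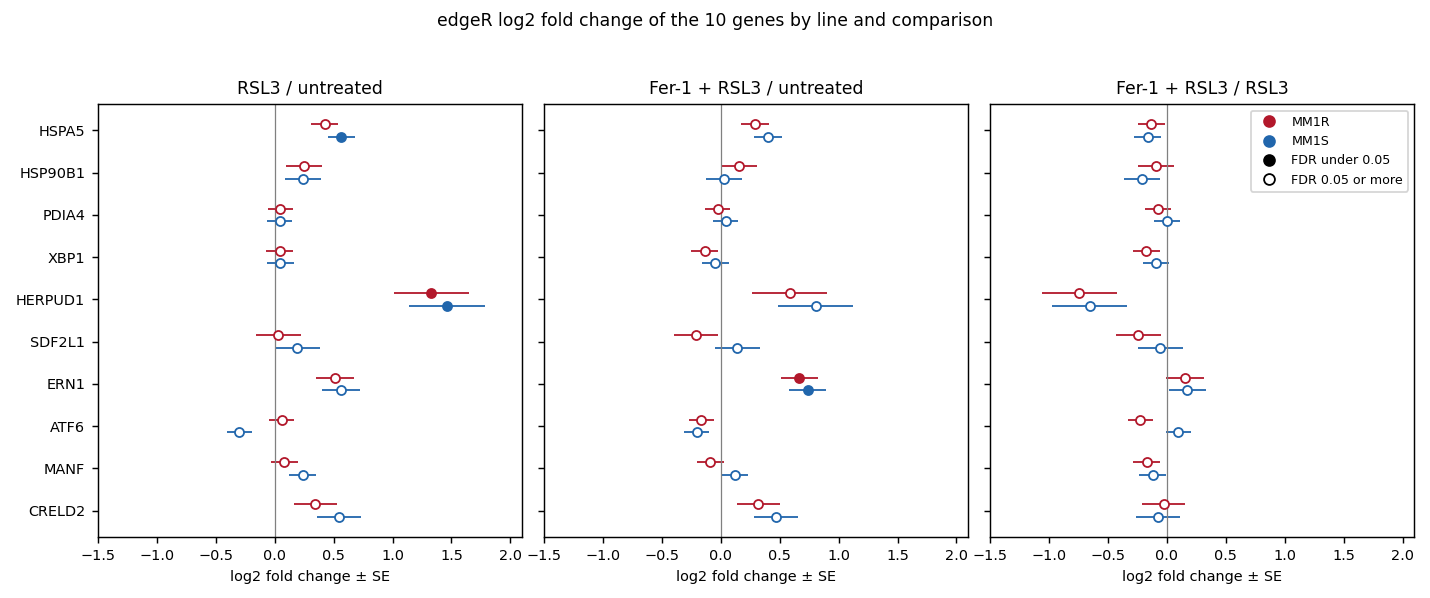
edgeR log2 fold changes ± SE (horizontal axes) of the 10 genes in 3 comparisons, MM1R in red and MM1S in blue, filled where the FDR was under 0.05. HERPUD1 passes for RSL3 in both lines, HSPA5 in MM1S, and ERN1 for Fer-1 + RSL3 against untreated in both lines, while no gene passes for Fer-1 + RSL3 against RSL3.

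Against untreated cells, which both of the treated comparisons share as control, Fer-1 + RSL3 left ERN1 raised. It was the 1 of 10 genes called in MM1R (0.67 ± 0.16, FDR = 0.0160, 9.22% of all genes called) and in MM1S (0.74 ± 0.16, FDR = 0.0135, 4.61%). Its Fer-1 + RSL3 libraries lay above all untreated libraries in both lines. The same held for 16.5% of all genes in MM1R and 14.7% in MM1S, and for 4 and 3 of the 10. Without the MM1R library that stands apart, the value of ERN1 in MM1R was 0.78 ± 0.17 (FDR = 0.0178). The call in MM1R was lost without untreated replicate 2 or 3 or Fer-1 + RSL3 replicate 1 or 3 (FDR 0.0570 to 0.0776). In MM1S it was lost without untreated replicate 1 or 3 or Fer-1 + RSL3 replicate 1 (FDR 0.0606 to 0.0726).

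HERPUD1 had 0.59 ± 0.32 in MM1R (FDR = 0.269) and 0.81 ± 0.32 in MM1S (FDR = 0.169), and HSPA5 had 0.29 ± 0.12 (FDR = 0.131) and 0.40 ± 0.12 (FDR = 0.0591). Both were above untreated in 6 of 6 passages, as was CRELD2, at 0.32 ± 0.18 and 0.47 ± 0.19. ATF6 was below untreated in 6 of 6 passages (-0.17 ± 0.11 and -0.20 ± 0.11), with FDRs of 0.350 and 0.316. Without the MM1R library that stands apart, HERPUD1 of MM1R had 0.72 ± 0.35, HSPA5 0.30 ± 0.13, CRELD2 0.40 ± 0.21 and ATF6 -0.14 ± 0.12, with FDRs of 0.221 to 0.589. With passage as a block, 1 of 10 was called in MM1R (22.2% of all genes) and 3 of 10 in MM1S (14.7%), where HSPA5 (FDR = 0.0211) and CRELD2 (FDR = 0.00961) joined ERN1. Without passage 16, HSPA5 (FDR = 0.0432) and HERPUD1 (FDR = 0.0429) joined ERN1 in MM1R, against 16.4% of all genes. In MM1S HSPA5 alone was then called (FDR = 0.0490, 2.66% of all genes), with ERN1 at an FDR of 0.100.

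The rest of the pathway was described with 6 gene lists, members left out, in the averaged comparison of RSL3 with untreated cells. Among the sensors and transducers, 1 of 8 tested genes rose and 0 fell. It was EIF2AK3, which encodes PERK, at 1.56 ± 0.27 (FDR = 0.00122). Among ER chaperones and disulfide enzymes, 6 of 28 rose and 0 fell, with a median of 0.15. The HSP70-like HSPA13 (1.11 ± 0.11) and the BiP co-chaperone DNAJB9 (1.36 ± 0.20) were among them, and DNAJC3 (0.38 ± 0.10), another co-chaperone, and CRELD1 (0.34 ± 0.09), the relative of CRELD2, were raised less. Of the genes of ER-associated degradation, 6 of 26 rose and 0 fell (median 0.12), among them SELENOK (0.99 ± 0.19), HERPUD2 (0.79 ± 0.17), the mannosidase-like EDEM1 (0.33 ± 0.09) and the ligase RNF139 (0.46 ± 0.13). Of the translocon, signal peptidase and export genes, 4 of 37 rose and 0 fell (median 0.11). These were the signal recognition particle receptor subunits SRPRB (0.36 ± 0.08) and SRPRA (0.25 ± 0.08) and the vesicle coat genes SEC24D (0.45 ± 0.13) and SAR1A (0.27 ± 0.08). The shares in these lists stand beside 15.5% of all genes called and a median of all genes of -0.0001.

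The list named for the arm downstream of PERK moved further, and whether PERK acted on its genes was not tested. Of its 12 tested genes, 10 rose and 0 fell, with a median of 1.46. DDIT3, which encodes CHOP, rose by 2.55 ± 0.29, ATF3 by 4.32 ± 0.60, DDIT4 by 2.73 ± 0.39 and CEBPB by 1.71 ± 0.20. DDIT3 had 10.2, 7.52 and 7.24 CPM in untreated and 71.1, 21.1 and 55.4 CPM in RSL3-treated MM1R. In MM1S it had 7.62, 15.7 and 9.54 CPM and 101, 47.0 and 42.3 CPM. Among cytosolic heat shock genes 12 of 16 rose and 0 fell, with a median of 1.46. The examples are DNAJB1 (3.89 ± 0.52), BAG3 (3.08 ± 0.45) and HSPA8 (1.37 ± 0.20), a HSP40, a HSP70 co-chaperone and the constitutive HSP70, and HSPA6, an inducible HSP70 (9.59 ± 1.22). HSPA6 had 18 to 33 counts in untreated libraries, so that its fold change rests on few counts there, and 1211 to 65740 counts with RSL3. The median of the 10 ER genes in the same fit was 0.20.

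Passage 16 entered these counts. Without it, 1 of 8 sensors, 2 of 28 chaperones, 3 of 26 degradation genes, 1 of 37 translocon and export genes, 9 of 13 genes of the PERK arm (median 0.89) and 11 of 17 heat shock genes (median 1.24) rose and 0 fell, beside 10.9% of all genes called in either direction. With passage as a block, some genes of the first 4 lists fell. The counts were 1 higher and 1 lower of 8 sensors, 11 and 1 of 28 chaperones, 9 and 2 of 26 degradation genes, and 11 and 2 of 37 translocon and export genes. In the PERK arm 10 of 12 rose and 0 fell, and in the heat shock list 14 of 16 rose and 0 fell. The block called 30.4% of all genes.

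**Figure D5:**
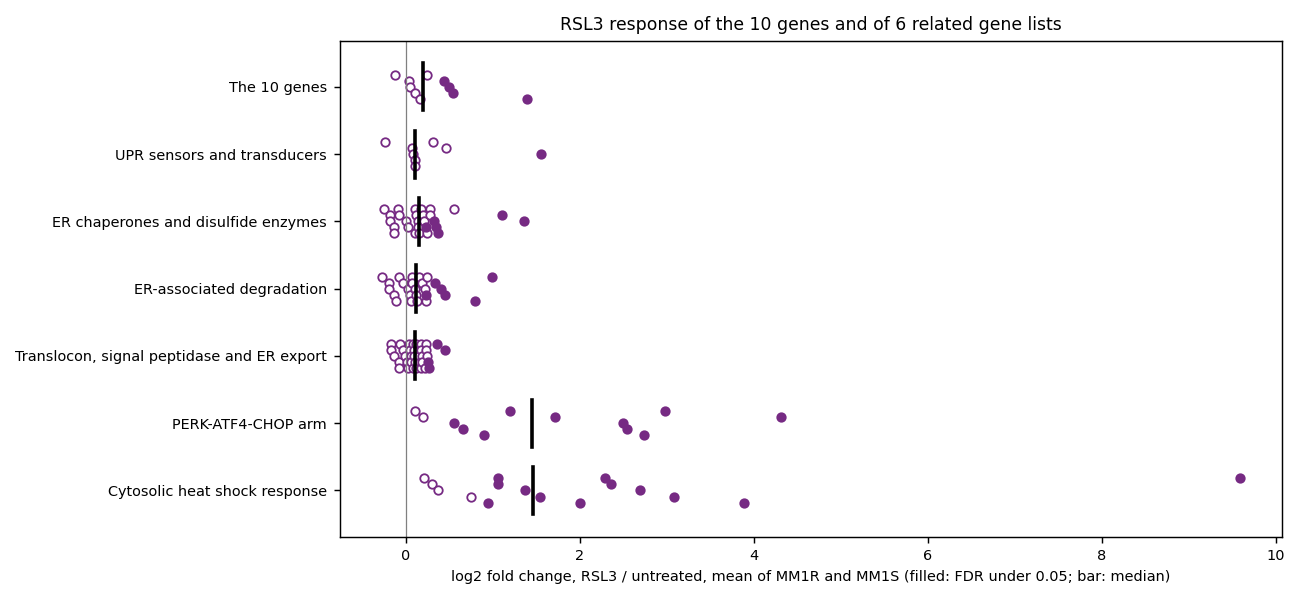
Log2 fold changes of RSL3 over untreated averaged over both lines (horizontal axis) for each gene of the 10 and of 6 related lists without them, filled where the FDR was under 0.05, with a bar at each median. The 10 genes and the first 4 lists have medians between 0.11 and 0.20, and the PERK-ATF4-CHOP arm and the cytosolic heat shock response both have 1.46.

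None of the list genes was called for Fer-1 + RSL3 against RSL3 averaged over both lines with edgeR, at a background of 0.119%, while 1 of 10 members and 3 of 8 sensors, 5 of 28 chaperones, 6 of 26 degradation genes, 5 of 37 translocon and export genes, 4 of 12 genes of the PERK arm and 1 of 16 heat shock genes had an unadjusted p under 0.05, as had 12.8% of all genes. Beside HERPUD1 (-0.70 ± 0.22), EIF2AK3 had -0.88 ± 0.27 (FDR = 0.193), SELENOK -0.77 ± 0.19 (FDR = 0.0962) and DNAJB9 -0.66 ± 0.20 (FDR = 0.187). HSPA13 had -0.01 ± 0.11 (FDR = 0.990) and DDIT3 0.20 ± 0.27 (FDR = 0.808). The list genes named here were picked for their rise with RSL3, and the same RSL3 libraries enter both comparisons. A fall is therefore favoured by the choice, and values of these list genes without passage 16 are not given here.

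Between the untreated lines, list genes were called in both directions. MM1R had more DERL3 (1.09 ± 0.23), a channel component of degradation in secretory cells, SIL1 (0.66 ± 0.17), the nucleotide exchange factor of HSPA5, KDELR2 (0.45 ± 0.11), which retrieves ER proteins, CNPY3 (0.43 ± 0.13), TMEM129 (0.38 ± 0.11) and TNFRSF10B (1.01 ± 0.14), a death receptor and CHOP target. It had less PDIA3 (-0.77 ± 0.14), a disulfide isomerase, SEL1L (-0.83 ± 0.17), the scaffold of the degradation ligase, and HSPA13 (-0.54 ± 0.16). In all, beside 10.5% of all genes called, MM1R was higher for 2 and lower for 2 of 28 chaperones, higher for 2 and lower for 1 of 26 degradation genes, and higher for 1 of 37 translocon and export genes and 1 of 12 genes of the PERK arm. None of 8 sensors and none of 16 heat shock genes was called, at unadjusted p under 0.05 in 1 and 0 of them and in 24.8% of all genes.

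Finally, the genes whose pattern over the 18 libraries was most like that of HSPA5 were listed, as a description. The measure was Pearson's r of log2 CPM with the mean of each line removed, and the libraries share their treatments and passages. TUBB2A had r = 0.952, GADD45G 0.949, GALM 0.941, SARAF 0.936 and DAPK1 0.934. Of the members, HERPUD1 was rank 19 of all genes tested with r = 0.915. ERN1 (0.745), CRELD2 (0.739), HSP90B1 (0.674) and MANF (0.528) followed, then SDF2L1 (0.348), XBP1 (0.192) and PDIA4 (0.0834), and ATF6 was at -0.490.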

How the data were processed

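RNA of 18 libraries was sequenced paired-end by the authors on a BGISEQ-500 and, per the submitters' notes, checked with FastQC 0.11.5, aligned to hg19 with STAR 2.7.3a and analysed with DESeq2. The authors deposited raw counts for 43735 genes, used here, and a table of normalized signal for 29553 genes, in which the deposited counts are divided by a size factor of 0.834 to 1.08 per library. The counting tool, annotation and use of strand are not given in the sources used here.

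Counts were filtered (filterByExpr, minimum count 10), scaled by TMM and fitted with edgeR 4.0.16 in R 4.3.3 (quasi-likelihood, 6 group means, 12 residual degrees of freedom). The SE of a log2 fold change is its size divided by the root of the F statistic. A call is an FDR under 0.05. The steps were tested on simulated data. Alternatives were passage as a block (8 degrees of freedom), DESeq2 1.42.0, RLE and upper-quartile scaling, no filter, a minimum count of 50, only the groups compared, a log2 fold change over 1, leaving out each library and, added after seeing the data, leaving out MM1S passage 16. The labels give the passage, which pairs the libraries of a line. Deviations from group means correlated at 0.216 to 0.681 within passages, except at 0.0338 to 0.0924 within MM1R passage 6. Replicates of a group differed beyond sampling noise (chi-square per degree of freedom of at least 7.59).

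The 10 members and the gene lists were chosen with earlier results of these data known. Named genes are the members, up to 4 list genes a direction with the smallest FDR for RSL3 in both lines, up to 2 each for the untreated lines and for Fer-1 + RSL3 against RSL3, and the 5 most like HSPA5. Other genes named served to check libraries, and 1 marker is not reported here. Positions and transcript lengths come from a GENCODE annotation on hg19, matched by symbol, and promoters from RefSeq.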

Additional observations from a re-analysis of the deposited data

Results flagged for a closer look

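ATF6 stood out because its log2 ratio with RSL3 was above 0 in every passage of MM1R and below 0 in every passage of MM1S. The change in MM1R was within its error (0.06 ± 0.11, FDR = 0.835 in edgeR's test). How many of all genes have signs split in this way was not counted. The log2 ratio of RSL3 over untreated cells was 0.08, 0.02 and 0.07 at passages 4, 6 and 7 of MM1R and -0.46, -0.22 and -0.20 at passages 16, 22 and 23 of MM1S. The mean of MM1R minus the mean of MM1S was 0.35. In edgeR's interaction test the difference was 0.36 ± 0.15 (unadjusted p = 0.0279, FDR = 1.00), and with passage as a block 0.35 ± 0.10 (unadjusted p = 0.00386, FDR = 0.906). Without passage 16 it was 0.27 ± 0.15 (unadjusted p = 0.0977, FDR = 1.000). The difference therefore did not pass the correction over all genes in any of these fits.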

How the results depend on the processing

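Of 2580 recomputed log2 fold changes of the 10 genes, 2493 kept their side of the FDR threshold, 50 newly passed it and 37 no longer did. Among the 2493, 86 values that were called in neither fit changed sign. Of called values, 0 changed sign. RLE and upper-quartile scaling left every count of members called as it was. For RSL3 against untreated, the counts of members called (1 in MM1R, 2 in MM1S, 4 in the average) became 4, 5 and 5 with passage as a replicate block, 3, 3 and 4 with DESeq2, 2, 4 and 4 with no filter, 2, 2 and 4 with the stricter filter, 1, 0 and 4 with only the groups compared, 3, 0 and 4 without MM1S passage 16, and 1, 1 and 1 with a log2 fold change over 1 as well. Leaving out 1 library gave 0 to 3 in MM1R (0 without untreated MM1R replicate 1, 3 without MM1S RSL3 replicate 1), 0 to 4 in MM1S (0 without untreated MM1S replicate 1, 4 without MM1S RSL3 replicate 3) and 3 to 5 in the average. For Fer-1 + RSL3 against RSL3, 0 members were called under every alternative and in all 18 fits without a library, except 1 each in MM1R, MM1S and the average with no filter (HERPUD1). For Fer-1 + RSL3 against untreated, the counts (1 in MM1R, 1 in MM1S) became 1 and 3 with the block, 1 and 2 with DESeq2, 2 and 2 with no filter, 1 and 2 with the stricter filter, 2 and 3 with only the groups compared, 3 and 1 without passage 16, 0 and 0 with the fold threshold, and 0 to 3 in each without 1 library (3 without MM1S RSL3 replicate 1). For the untreated lines, the count of 1 became 2 with DESeq2, 2 with only the groups compared, 0 with the fold threshold and 0 to 2 without 1 library. No paired analysis was possible because MM1R and MM1S share no passage in that comparison. The interaction stayed at 0 members throughout. The cause of these moves was not tested.

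Counts over all genes moved by more than 1.5 times as follows. RSL3 against untreated called 480 genes in MM1R, 524 in MM1S and 2215 in the average. These became 1868, 1904 and 4345 with the block and 171, 230 and 462 with the fold threshold. In MM1R and MM1S they became 941 and 1032 with DESeq2, 1014 and 1214 with no filter, and 1427 and 83 without passage 16. With only the groups compared, MM1S had 3. Fer-1 + RSL3 against RSL3 called 0, 0 and 17. These became 25, 8 and 338 with the block, 38, 7 and 229 with DESeq2, 271, 308 and 571 with no filter, 67, 0 and 18 without passage 16, and 0, 0 and 8 with the fold threshold. With only the groups compared the average had 0. Fer-1 + RSL3 against untreated called 1317 in MM1R and 659 in MM1S, which became 3173 and 2093 with the block, 309 and 195 with the fold threshold and 2369 and 384 without passage 16. In MM1S it had 1158 with DESeq2 and 1085 with no filter. The untreated lines had 1498 genes, and 662 with the fold threshold. The interaction had 0, and 30 with no filter. Leaving out 1 library gave, over all genes, 113 to 1185 in MM1R, 84 to 943 in MM1S and 1405 to 2597 in the average for RSL3 against untreated, 0 to 50, 0 and 0 to 138 for Fer-1 + RSL3 against RSL3, 633 to 1991 and 293 to 1240 for Fer-1 + RSL3 against untreated, and 661 to 2001 for the untreated lines.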
